A study of Bos taurus with 18 samples.

Results

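The comparison of added against blocked miR-34c covered 8 of the 18 sequenced pools of bovine blastocysts: 5 pools from oocytes matured with microRNA-34c mimics (M1 to M5) and 3 from oocytes matured with microRNA-34c inhibitors (I1 to I3). The rule took every pool whose sample label named either treatment, and used no measured value. Oocytes came from follicles of 2 to 4 mm of slaughterhouse ovaries, received the supplement only during the 22 h of in vitro maturation (IVM), were fertilized and cultured, and were collected as pools of 10 embryos at 8 d post insemination (dpi). The other 10 pools came from oocytes matured with negative control (NC) mimics (3 pools), NC inhibitors (3 pools) or with neither, which received water in their place (control, 4 pools). They served here as background and, in the model, as further estimates of the spread between pools. No genetic modification or strain was given for any group. The labels named neither the donor cows nor a production day.

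The miR-34 family comprises small RNAs that guide Argonaute proteins to partly complementary sites in messenger RNAs, mostly in their 3′ ends, and thereby lower the stability and translation of those messages. The family is best known as a set of p53 target genes that restrain proteins of the cell cycle and of cell survival, and miR-34c is also carried by sperm. A mimic is a synthetic duplex that supplies more of the mature miRNA, while an inhibitor is a complementary strand that binds the mature miRNA and keeps it from its messages. The direct contrast asks how the messages of an embryo differ, days after the oocyte met the oligonucleotide, between an excess and a block of the same miRNA. A blastocyst holds an inner cell mass, which gives rise to the fetus, and a trophectoderm, which gives rise to the placenta. In whole-embryo pools, fewer cells of a type and less RNA per cell cannot be told apart.

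The libraries captured the 5′ ends of mRNA with a modified Smart-seq3xpress protocol and held between 2063863 and 4071640 counts in the 8 pools, with 13770 to 15491 genes detected. The count table listed 27270 genes by Ensembl identifier without symbols, so the lists for inner cell mass, trophectoderm, cell cycle, apoptosis and miR-34 targets were not analysed here, and the blastocyst label was not checked against markers. Neither miR-34c itself nor its uptake was measured in these libraries. The labels do not say whether pools of a treatment came from separate cultures, so p-values measure only the spread between these pools.

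In the main test, by edgeR, no gene differed between the miR-34c mimic and the miR-34c inhibitor pools past the thresholds used. The number of differentially expressed (DE) genes, defined by an adjusted p below 0.05 and a fold change of at least 2, was 0 of 11082 genes tested (0%) in edgeR's quasi-likelihood test, and the smallest Benjamini-Hochberg adjusted p was 0.631. At an unadjusted p below 0.05 there were 449 genes (4.05%), of which 131 (1.18%) were higher and 318 (2.87%) lower with mimics. DESeq2 called 1 gene (0.00902%) of 481 (4.34%) at an unadjusted p below 0.05, and limma voom with sample quality weights called 842 (7.6%) of 4513 (40.7%). The median log2 fold change over all genes was -0.02, and 280 genes differed by at least 2-fold in the estimate, 83 of them higher and 197 lower with mimics.

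No gene was present in every pool of one treatment and near absent from every pool of the other. The number of genes with at least 10 counts in every mimic pool and at most 3 in every inhibitor pool was 0, and it was 0 in the opposite direction too. The 5 mimic pools and the 3 inhibitor pools did not overlap in 164 genes (1.48% of those tested), of which 67 (0.605%) were higher and 97 (0.875%) lower with mimics. Of these, 37 genes (0.334%) also differed by at least 2-fold, 17 of them higher (0.153%) and 20 lower (0.18%). Their median log2 fold change was 1.26 in the higher set, with 2.28 as the largest, and -1.23 in the lower set, with -2.51 as the largest fall. The control pools lay on average nearer to the mimic than to the inhibitor mean in 15 of the 17 genes higher with mimics and in 14 of the 20 lower genes. The NC inhibitor pools lay nearer to the mimic mean in 9 of the 17 and 4 of the 20 genes, and the NC mimic pools in 12 and 6. The 37 genes were chosen for the gap between mimics and inhibitors, and the same counts over all genes were not made. These placements are a description with no test.

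The genes described in full are those with the smallest p among these 37, a pair in each direction. They are identified by number alone, and what they encode is not given in the sources used here. Values are TMM-scaled CPM, the counts of a gene divided by the scaled library total.

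ENSBTAG00000038112 had the smallest p of all genes. It had 296, 192, 276, 197 and 203 counts in M1 to M5, which are 106, 47.8, 101, 78.1 and 104 CPM. In I1, I2 and I3 it had 100, 59 and 149 counts, or 43.2, 24.0 and 35.4 CPM. All mimic pools lay above all inhibitor pools, but M2 lay only just above I1 and far below the other 4 mimic pools. The mean was 87.2 ± 24.7 CPM (SD, n = 5) with mimics and 34.2 ± 9.66 CPM (SD, n = 3) with inhibitors, and the fitted log2 fold change was 1.35 (SE 0.26, adjusted p = 0.631 by edgeR), a 2.55-fold higher level. It was the 1 gene that DESeq2 called (adjusted p = 0.00348). Limma voom with sample quality weights called it among its 842 genes (adjusted p = 0.000726). The control pools held 107 ± 11.5 CPM (SD, n = 4), between 94.0 and 119 CPM, a range that overlaps that of the mimic pools and lies wholly above the inhibitor pools. The NC mimic pools (57.9 to 80.2 CPM) and the NC inhibitor pools (49.7 to 73.5 CPM) lay between the inhibitor pools and the control, and overlapped each other.

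ENSBTAG00000036102 was the other gene higher with mimics. Its values in M1 to M5 were 43.6, 25.9, 30.0, 38.1 and 24.0 CPM, from 122, 104, 82, 96 and 47 counts. In I1, I2 and I3 they were 9.07, 19.1 and 13.1 CPM, from 21, 47 and 55 counts. I2 was the highest inhibitor pool and came closest to the mimic pools. The log2 fold change was 1.23 (SE 0.31, adjusted p = 0.859 by edgeR), a 2.35-fold higher level. The gene was also among the 842 called by limma voom (adjusted p = 0.00278). The control pools held 31.7 to 48.7 CPM, while the NC mimic pools held 12.5 to 14.5 CPM and the NC inhibitor pools 8.94 to 24.8 CPM. Both NC groups thus overlapped the inhibitor pools, and the NC inhibitor pools also reached the lowest mimic pool.

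Among genes lower with mimics, ENSBTAG00000006530 was scarce throughout. It had 2, 5, 2, 2 and 0 counts in M1 to M5, or 0.715, 1.24, 0.731, 0.793 and 0 CPM. The 0 in M5 allows up to 1.53 CPM at a limit of 3 counts. By the exact 95% Poisson interval it allows up to 1.88 CPM, above the level in I2. In I1, I2 and I3 it had 14, 4 and 15 counts, or 6.04, 1.62 and 3.56 CPM. I2 had 4 counts against 5 in M2, and the exact 95% Poisson intervals of the pair, 0.443 to 4.16 CPM and 0.404 to 2.90 CPM, overlapped. The separation of the groups rested on the other 6 pools, with 0 to 2 counts in the mimic pools and 14 and 15 in I1 and I3. Such intervals and limits cover counting error only. The log2 fold change was -2.23 (SE 0.52, adjusted p = 0.859 by edgeR). Limma voom called the gene among its 842 (adjusted p = 0.00495). The control pools held 0.871 to 1.52 CPM, the NC mimic pools 2.18 to 3.75 CPM and the NC inhibitor pools 2.27 to 3.93 CPM. The control therefore overlapped the mimic pools, and both NC groups lay within the range of the inhibitor pools.

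ENSBTAG00000014401 was also lower with mimics in the estimate, at low counts. Its values were 1.07, 2.49, 1.46, 1.59 and 1.53 CPM in M1 to M5, from 3, 10, 4, 4 and 3 counts, and 9.50, 4.06 and 3.32 CPM in I1, I2 and I3, from 22, 10 and 14 counts. M2 was the highest mimic pool and had as many counts as I2, with intervals of 1.19 to 4.58 CPM and 1.95 to 7.47 CPM. The log2 fold change was -1.69 (SE 0.45, adjusted p = 0.859 by edgeR), and I1 was the 1 pool of the 8 above 5 CPM. Limma voom did not call the gene (adjusted p = 0.0603). The control pools held 1.31 to 3.64 CPM, the NC inhibitor pools 1.79 to 3.58 CPM and the NC mimic pools 4.05 to 7.98 CPM. The NC mimic pools lay above all mimic pools and overlapped the inhibitor pools.

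**Figure D1:**
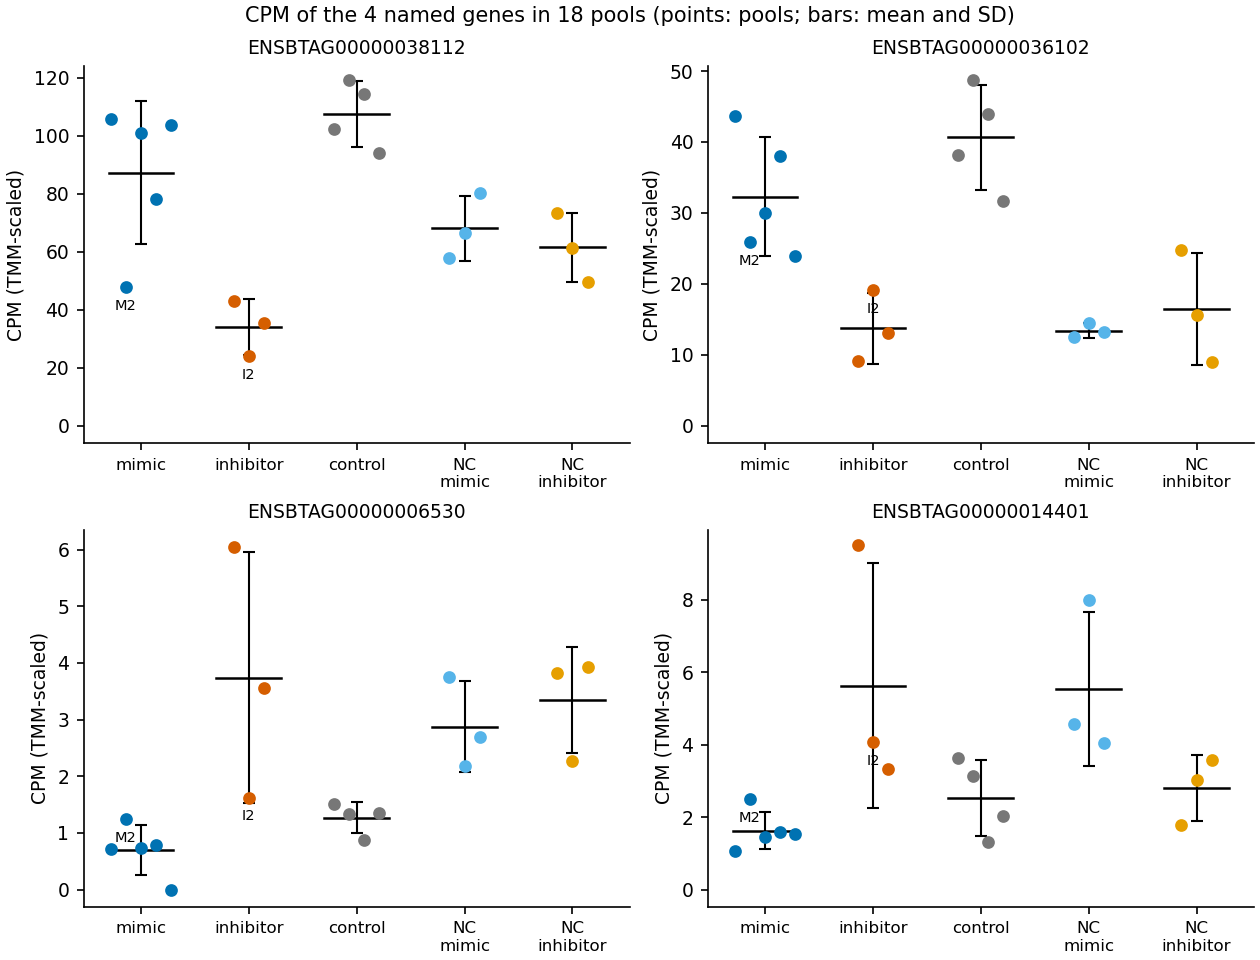
Level in CPM (vertical axes) of ENSBTAG00000038112, ENSBTAG00000036102, ENSBTAG00000006530 and ENSBTAG00000014401 in the 5 treatments, with a point for each pool, a line at the mean and bars for the SD; the pools M2 and I2 are named. The 5 mimic and 3 inhibitor points do not overlap in any panel, and the inhibitor pool nearest to the mimic pools is I1 for ENSBTAG00000038112, I2 for ENSBTAG00000036102 and ENSBTAG00000006530, and I3 for ENSBTAG00000014401.

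Pools of a treatment were about as far from each other as from pools of the other treatment. The distance between 2 pools was taken as the root mean square difference in log2 CPM over the 11082 genes. It ran from 0.531 to 0.970 (median 0.626) for the 10 pairs within the mimic group, from 0.749 to 1.26 (median 0.839) for the 3 pairs within the inhibitor group and from 0.479 to 1.18 (median 0.692) for the 15 pairs between them. The closest of all 28 pairs was M2 with I3, from different treatments, in which 538 genes (4.85%) differed by more than 2-fold. The most distant was I1 with I2, both from inhibitors, in which 4505 genes (40.7%) did. I2 was nearer to M1 (0.545), M4 (0.559), M5 (0.575) and M3 (0.644) than to I3 (0.839) or I1 (1.26). M2 was nearer to I3 (0.479) and I1 (0.611) than to any mimic pool, the nearest of which was M3 (0.763).

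**Figure D2:**
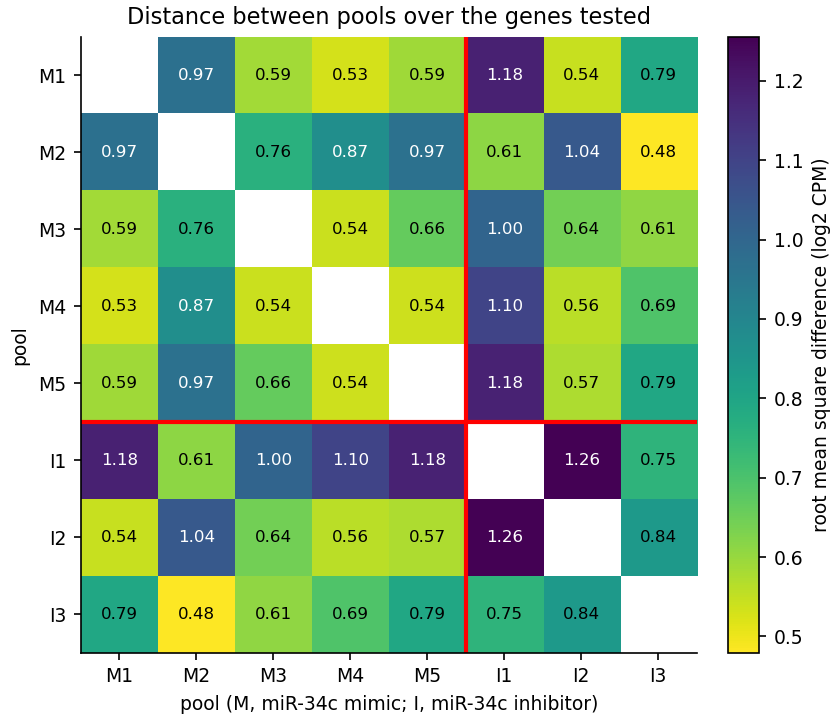
Distance between each pair of the 8 pools as the root mean square difference in log2 CPM (colour scale and printed values), with red lines between the mimic (M) and inhibitor (I) pools. M1, M4, M5 and I2 are close to each other, M2 is closest to I3 at 0.48 and to I1 at 0.61, and M3 is at 0.54 from M4, 0.61 from I3 and 0.64 from I2.

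The same arrangement appeared on the first principal component of the 8 pools, which held 61.0% of the variance, against 9.47% for the next. The scores of M1 to M5 were -37.6, 52.1, -10.6, -26.7 and -36.1, and those of I1 to I3 were 79.0, -46.6 and 26.6. M2 fell between I3 and I1, and I2 fell beyond the lowest mimic pool. The mean score was -11.8 ± 37.3 (SD, n = 5) with mimics and 19.6 ± 63.1 (SD, n = 3) with inhibitors, and the difference was smaller than the spread within either group (two-sided exact permutation test over 56 splits, p = 0.393, adjusted p = 0.929 over 4 measures). The difference of -31.4 between the means became -2.47 without I1, -65.5 without I2 and -47.8 without M2. Total count, genes detected and the percentage of counts from the 10 top genes gave p = 0.929, 0.589 and 0.75 in the same exact test, each with an adjusted p of 0.929, and the smallest p this design allows is 0.0179.

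**Figure D3:**
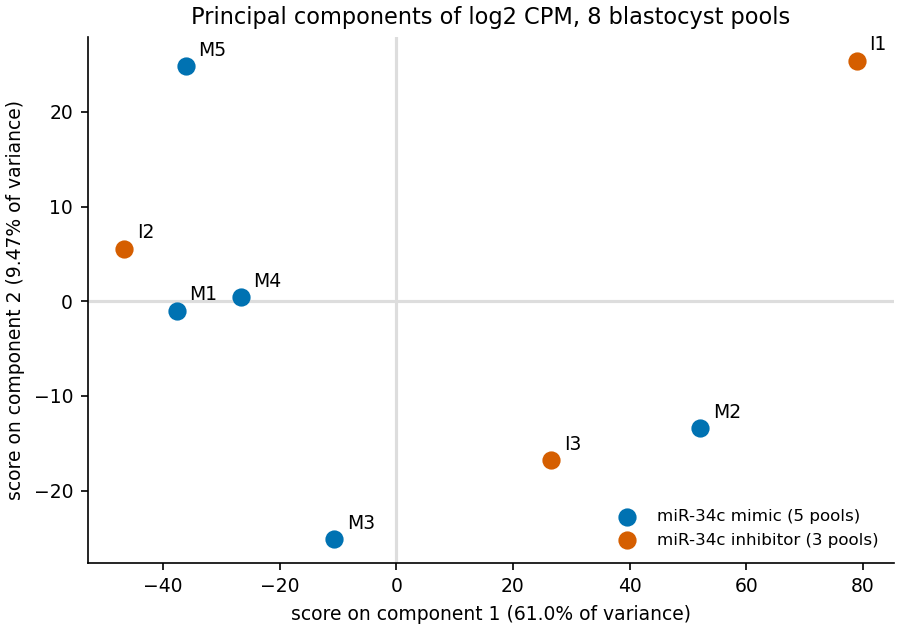
Scores of the 8 pools on the first (horizontal) and second (vertical) principal components of log2 CPM, with mimic pools in blue and inhibitor pools in orange. M2 lies on the right between I3 and I1, and I2 lies on the left beside M1 and M4.

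Library measures moved with this axis, and their part in it was not tested. The TMM scaling factor divided the pools as the axis did, with 1.03 in I1, 1.03 in M2 and 1.04 in I3 and 0.903 to 0.967 in the other 5 pools. The 10 most abundant genes took 14.0% of counts in I1, 12.9% in M2 and 10.9% in I3, the pools with the highest scores, and 7.46% in I2, 7.90% in M5, 8.95% in M1 and 9.27% in M4, those with the lowest. M3 held 11.8%. M2 and I3 also had the largest totals of the 8 pools, 3900521 and 4071640 counts, whereas I1, with the highest score, had 2250236.

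M2 and I2 departed from their own groups in many of the same genes and in opposite directions. In M2, 2310 genes (20.8%) lay more than 1 log2 unit from the median of the other mimic pools, against 365 to 723 genes (3.29% to 6.52%) in M1, M3, M4 and M5. M2 was the highest or the lowest mimic pool in 7346 genes (66.3%), and the other mimic pools in 2715 to 4782 (24.5% to 43.2%). In the inhibitor group, 3383 genes (30.5%) were that far off in I2, 2841 (25.6%) in I1 and 548 (4.94%) in I3. When each was set against the mean of the other pools of its treatment, 2258 genes were off in M2 and 3383 in I2. Of these, 1616 were off in both with opposite signs, which is 71.6% of the first set and 47.8% of the second, and 13 were off with the same sign. Of the 1616 genes, 673 were high in M2 and low in I2 and 943 the reverse. Across the 11082 genes the deviations had a Pearson's r of -0.81 and a Spearman's rho of -0.80, given as a description, since genes are not independent replicates.

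The contrast therefore depended on which pools were in the model. Without M2, ENSBTAG00000038112 was the 1 DE gene of 10994 (0.0091%), with a log2 fold change of 1.50 (SE 0.22, adjusted p = 0.0208 by edgeR), and 1669 genes (15.2%) had an unadjusted p below 0.05. Without I2 the number of DE genes was 0 of 11429, with 2608 genes (22.8%) at an unadjusted p below 0.05 and a smallest adjusted p of 0.169. Leaving out any other mimic pool gave 0 DE genes and 270 to 343 genes at that p. Without I1 there were 194 such genes (1.7%), and without I3 there were 517 (4.57%), again with 0 DE genes in both.

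The genes behind the count moved as well. Of the 449 genes at an unadjusted p below 0.05 with all pools, 402 were still below it without M2 and 366 without I2. Only 104 were without I1, and 218 to 272 without M1, M3, M4, M5 or I3. The total at that p also fell to 194 without I1, and rose to 1669 without M2 and 2608 without I2. The number of genes kept therefore does not show how much of the contrast a single pool carried. The balance of directions also depended on the inhibitor pools. Of the genes with at least a 2-fold estimate, 83 were higher and 197 lower with all pools, against 135 higher and 97 lower without I1 and 798 higher and 578 lower without I2. At an unadjusted p below 0.05, more genes were lower than higher with all pools (318 against 131) and without I1 (121 against 73), while without I2 more were higher (1422 against 1186).

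With both M2 and I2 left out, 1561 of 11320 genes (13.8%) were DE, 816 higher and 745 lower with mimics, and 4390 (38.8%) had an unadjusted p below 0.05. M2 and I2 are the pools that lay with the other treatment, so this comparison sets pools of the left side of the first component against pools of its right side, and the count is no evidence of a difference between treatments. Leaving out 1 mimic and 1 inhibitor pool is possible in 15 ways. The other 14 pairs, tried after seeing the data, gave 0 DE genes in 13 cases and 1 gene, ENSBTAG00000038112, without M2 and I1. In the 8 pairs that left both M2 and I2 in the model, 175 to 461 genes had an unadjusted p below 0.05.

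**Figure D4:**
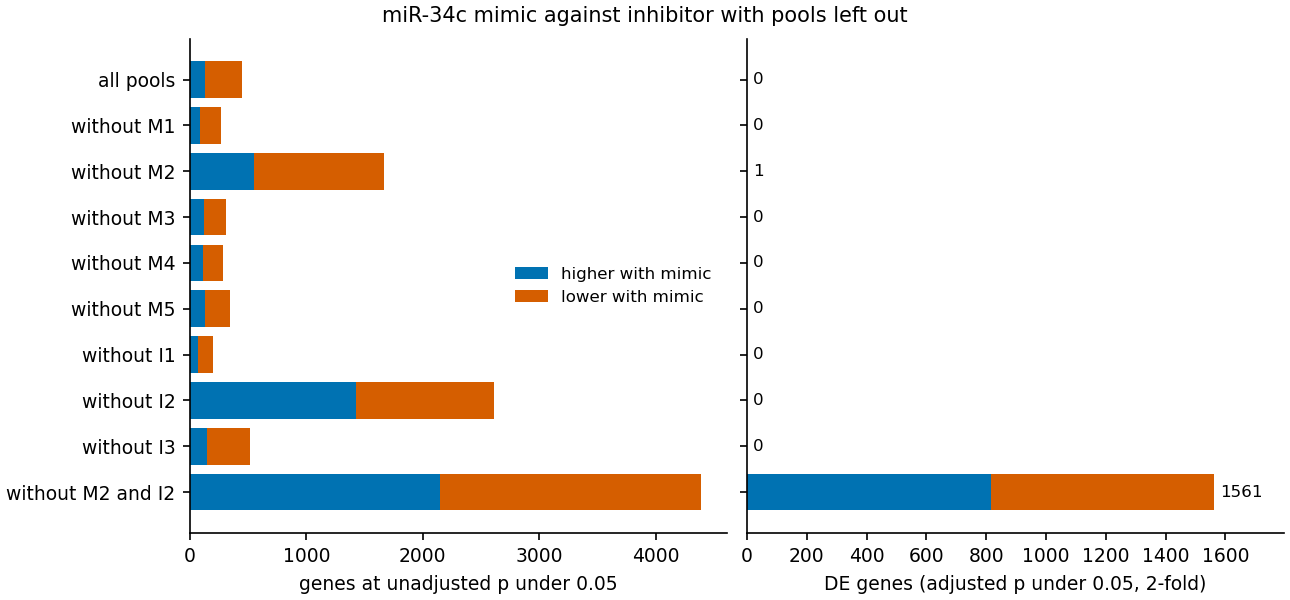
Number of genes at an unadjusted p below 0.05 (left) and of DE genes (right) for mimics against inhibitors with all pools, with each of the 8 pools left out, and without M2 and I2, divided into genes higher (blue) and lower (orange) with mimics. The DE count is 0 or 1 in every case except without both M2 and I2, where it is 1561.

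The 4 named genes were chosen for pools that did not overlap, which fixes their direction when pools are left out, so only the size of the change is given here, with no test. Without M2 and I2 the level of ENSBTAG00000038112 was 2.46-fold higher with mimics (SE 0.22 on the log2 scale). The log2 fold change of ENSBTAG00000036102 was 1.57 (SE 0.35), and those of ENSBTAG00000006530 and ENSBTAG00000014401 were -2.90 (SE 0.59) and -2.10 (SE 0.54). In ENSBTAG00000038112, I2 was the lowest inhibitor pool and did not lie towards the mimic pools. Without I1 the log2 fold change of ENSBTAG00000014401 was -1.11 (SE 0.48), against -1.69 with all pools.

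The remaining pools were placed along the genes that separated M1, M3, M4 and M5 from I1 and I3. For 1543 of the 1561 genes, those that also passed the filter with all pools, each pool's log2 CPM was scaled so that 0 was the mean of I1 and I3 and 1 the mean of the 4 mimic pools. The median position was 0.07 for M2 and 1.12 for I2, and M2 lay nearer to the mimic end in 80 genes (5.18%) and I2 in 1486 (96.3%). The untreated control spanned most of the scale, with control replicate 1 at 0.24 and replicates 2, 3 and 4 at 0.98, 0.93 and 1.08. The NC mimic pools lay at 0.58, 0.65 and 0.43, and the NC inhibitor pools at 0.09, 0.06 and 0.10. Pools given neither a mimic nor an inhibitor of miR-34c thus reached both ends of the scale, and untreated pools alone differed along it by most of its length. The genes were chosen for the difference between its ends, so these positions are a description with no test.

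**Figure D5:**
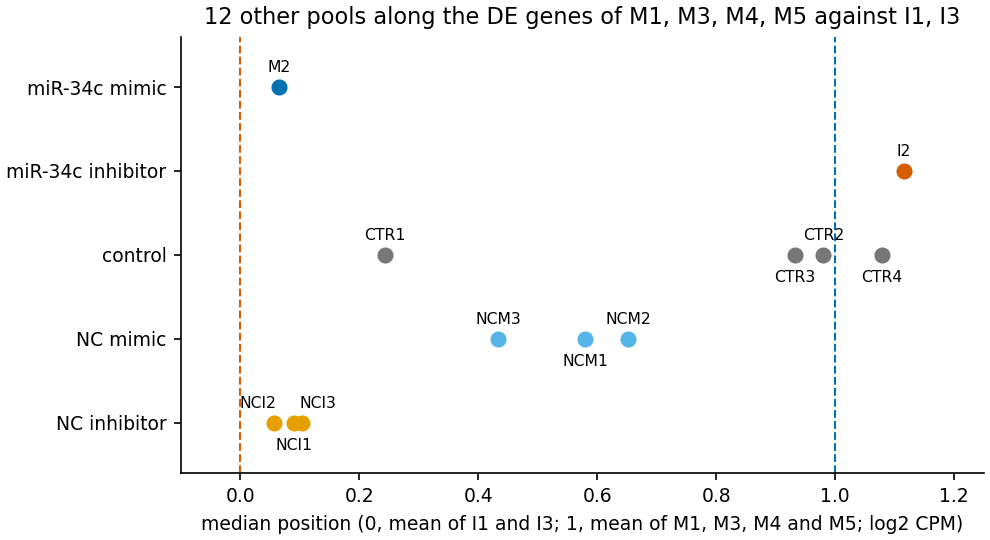
Median position of the 12 other pools over 1543 genes that were DE between M1, M3, M4 and M5 (position 1, blue dashed line) and I1 and I3 (position 0, orange dashed line), by treatment. M2 sits at 0.07, I2 at 1.12, control pools from 0.24 to 1.08 and NC inhibitor pools from 0.06 to 0.10.

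NC mimics against NC inhibitors set the same forms of oligonucleotide against each other without the miR-34c sequence, in 6 pools that share none with the contrast above. Limma voom with sample quality weights called 786 of 11082 genes for it, against 842 of 11082 (7.6%) for miR-34c mimics against inhibitors. In edgeR the NC contrast gave 0 DE genes of 11082. At an unadjusted p below 0.05 there were 1174 genes (10.6%), against 449 (4.05%) for miR-34c mimics against inhibitors, and the pools did not overlap in 4416 genes (39.8%). For miR-34c mimics against inhibitors that last share was 1.48%. The contrasts differ in their number of pools, 3 against 3 and 5 against 3. Random labels separate 3 against 3 pools fully more often than 5 against 3, so these shares cannot be compared directly. The part of pool number in their difference was not tested. The difference between both contrasts was tested in the same model and gave 0 DE genes of 11082 in edgeR. It had 359 genes (3.24%) at an unadjusted p below 0.05 and a smallest adjusted p of 0.836. Limma voom called 59 of 11082 genes for this difference. For ENSBTAG00000038112 and ENSBTAG00000036102 the NC contrast had log2 fold changes of 0.15 (SE 0.27) and -0.31 (SE 0.34), and for ENSBTAG00000006530 and ENSBTAG00000014401 of -0.22 (SE 0.51) and 0.99 (SE 0.48). None of the 4 passed the threshold between NC mimics and NC inhibitors, and none passed it for the difference between the contrasts (adjusted p = 0.999 for each by edgeR).

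The precision depended on the level of a gene. Among the 3694 genes with the lowest mean over all pools (median 5.61 CPM), the median SE of the log2 fold change was 0.44, and 237 of the 280 genes with a 2-fold estimate were among them. In the middle and upper sets of the same size (medians 24.3 and 94.6 CPM) the SE was 0.27 and 0.24, and 33 and 10 genes had such an estimate. Genes at an unadjusted p below 0.05 made up 4.93%, 4.55% and 2.68% of the 3 sets. With SEs of this size, a 2-fold difference in a gene could go undetected, above all in scarce genes.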

How the data were processed

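The authors deposited expected counts per Ensembl gene, not normalized and in whole numbers, for 18 pools. The submitters' processing notes name cutadapt 3.7, STAR 2.7.10a, UMI-tools 1.1.4, RSEM 1.3.3 and the build ARS-UCD1.2. Their settings, the annotation release and the use of strand are not given in the sources used here. RSEM divides reads shared by near-identical genes between them, so counts of such genes are uncertain. Groups came from the sample titles.

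Counts were analysed in R 4.3.3 with edgeR 4.0.16: filterByExpr by treatment, TMM normalization, and one quasi-likelihood model of all 18 libraries with treatment as its only term, from which mimics against inhibitors was drawn. Thresholds were an adjusted p of 0.05 (Benjamini-Hochberg over all genes tested) and a log2 fold change of 1, those the study states for miRNAs. Log2 CPM used a prior count of 2. The SE given with edgeR results was derived as the absolute log2 fold change divided by the square root of the F statistic. Named genes are the first 2 by p in each direction among genes with no overlap of pools and at least a 2-fold change, plus any called where 5 or fewer were. Alternatives used DESeq2 1.42.0, limma 3.58.1, other filters and scaling, and fewer pools. Scripts were tested on simulated data. The RefSeq gene table holds 37063 rows, of which 0 carry an Ensembl identifier. All 13 pairs of pools within a treatment differed by more than sampling noise (chi-square per degree of freedom of 4.42 or more), so none was taken for a library deposited more than once; this does not show that pools came from separate cultures. The choice of this contrast, the emphasis on M2 and I2, the rules and the tests were chosen with earlier results of these data known.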

Additional observations from a re-analysis of the deposited data

Results flagged for a closer look

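Among 17 combinations of a library measure or a named gene with the mimic or control group, 1 was set apart by the distance of a pool from its group, and about 1 in 20 is by chance. The TMM factor of control replicate 1 was 1.08, against 0.912 to 0.935 in the other control pools, and the distance to the next pool made up 0.861 of the spread of the 4 pools, past the 95% limit of Dixon's test for 4 pools. The same pool lay at 0.24 on the scale from the inhibitor to the mimic pools, away from the other control pools. In the mimic group, the score of M2 on the first component had a gap of 0.699, just under the critical value for 5 pools. Groups of 3, among them the inhibitor group with I2, were not tested.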

How the results depend on the processing

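For mimics against inhibitors the DE count was 0 with size factors, with either other filter, with only the 8 pools in the fit, with the adjusted p alone and with the replicate block, and it was 1 with DESeq2 and 842 with limma voom. The cause of the last was not tested; its weights were 0.334, 0.225 and 3.38 for I1, I2 and I3 and 0.204 for M2. Leaving out 1 pool gave 0 to 1 DE genes and 194 to 2608 genes at an unadjusted p below 0.05, and leaving out 1 pool of each treatment gave 0 to 1561 and 175 to 4390. Among single pools the 1 DE gene came without M2 and the 2608 genes without I2, and among pairs both highest counts came without M2 and I2. That second count, 449 (4.05% of genes tested) with all pools, changed with the filter, as did the number of genes tested. It was 296 (3.61%) with at least 10 counts in every library and 750 (3.86%) with no filter. It was 145 (1.41%) with only the 8 pools, 245 (2.21%) with the replicate block and 4513 (40.7%) with limma voom. No pairing by replicate number was seen. Mimic and inhibitor pools of equal number deviated from their group means with correlations of -0.43, -0.81 and 0.08. None of the 3 inhibitor pools correlated best with its own number. With 3 numbers, and M2 and I2 on opposite sides of the first component, these correlations cannot show whether pools of equal number shared a culture. For NC mimics against NC inhibitors the DE count was 786 of 11082 with limma voom and 1 of 8192 with at least 10 counts in every library. The 1 gene was ENSBTAG00000018373, named after its values were seen (log2 fold change -1.31, adjusted p = 0.0356 by edgeR, against 0.0969 in the main filter). The difference of the contrasts gave 59 of 11082 genes with limma voom. The difference between mimics and inhibitors on the first component was -31.4 and ran from -65.5 without I2 to -2.47 without I1 over the 10 alternatives, with no p under the threshold.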
